A study of Homo sapiens with 15 samples.

Results

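NOTCH4 and NOTCH3 are cell surface receptors whose intracellular domains (NICD4 and NICD3), once cut free, enter the nucleus and switch on target genes. Here the 3 libraries labelled NICD4 were set directly against the 3 labelled NICD3, out of 15 libraries in 5 groups, and members were chosen by sample label alone. RNA was measured by sequencing of polyadenylated transcripts in human cells. Cells of both groups carried a doxycycline-inducible domain, and the 3 empty vector (EV) libraries are quoted for orientation and enter no contrast. Dose and duration of doxycycline are missing from the labels, as is any word on doxycycline in EV cells or on separate cultures behind the replicates. The p-values therefore measure the spread between these libraries, which may be technical.

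Labels of the groups need care. The cell line field names HCT116, a colorectal carcinoma line, while the descriptions name U373, a glioma line. Replicate 1 of NICD4 is called NICD4 in its title and description but NICD3 in its source and genotype fields, and it was kept in NICD4. Across 8402 genes its log2 values correlated with NICD4 replicates 2 and 3 at r = 0.974 and 0.989, and with the NICD3 libraries at r = 0.910 to 0.940. NICD4 replicate 2 correlated with the NICD3 libraries at r = 0.971 to 0.982, as closely as with NICD4 replicate 1, so these values do not separate the groups. The receptor genes themselves do not check the labels. NOTCH4 stood at 1.81, 2.22 and 1.94 CPM (reads relative to the scaled library total) in NICD4 cells, against 2.46, 1.9 and 1.88 CPM in NICD3 cells. NOTCH3 stood at 13, 13.9 and 15.4 CPM in NICD4 cells, against 11.5, 11.9 and 11.6 CPM in NICD3 cells. The sources do not say how reads from the introduced domains were treated, so NICD4 and NICD3 mean the libraries so labelled.

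The level of colorectal epithelial markers was summed over the 13 tested of 18 listed. It was 11099 to 15870 CPM in NICD4 cells, 18684 to 23502 CPM in NICD3 cells and 2174 to 2755 CPM in EV cells. KRT8 alone gave 6347 to 9709 CPM in NICD4 cells, 11346 to 14933 CPM in NICD3 cells and 951 to 1224 CPM in EV cells. EPCAM, of the same list, stood at 122 to 176 CPM in NICD4 cells and 207 to 247 CPM in NICD3 cells. CDX2 stood at 53.8 to 68.7 CPM in NICD4 cells and 37.4 to 44.7 CPM in NICD3 cells. CLDN4 stood at 54.3 to 65.2 and 69.6 to 82.3 CPM, and VIL1 at 0.972 to 1.72 and 0.189 to 0.272 CPM, in the same order. CDX1, CEACAM5 and CDH17 had at most 1 read in all in each of the NICD4 and NICD3 groups. Of 16 astrocyte and glioma markers 5 were tested, with a summed level of 63.6 to 87.0 CPM in NICD4 cells and 82.4 to 86.4 CPM in NICD3 cells. NES stood at 28.2 to 45.6 CPM in NICD4 cells and 21.8 to 23.2 CPM in NICD3 cells. SLC1A3 stood at 14.3 to 18.3 and 22.6 to 25.2 CPM, and GFAP at 2.87 to 6.87 and 2.43 to 2.83 CPM, in the same order. AQP4 and OLIG2 had no read in either group. Neither identity in the labels was settled by these markers. Endothelial markers summed to 392 to 620 CPM in NICD4 cells and 237 to 323 CPM in NICD3 cells, of which EGFL7 gave 372 to 599 and 221 to 306 CPM. Of 6 endothelial markers tested 4 were higher and 1 lower in the first fit, and 0 higher and 1 lower with each library's trend on GC content as a covariate. Blood cell markers summed to 12.3 to 18.7 CPM in NICD4 cells and 10.5 to 11.9 CPM in NICD3 cells, and 3 of 7 tested were higher and 0 lower in the first fit, but 0 without NICD4 replicate 1 or with the covariate. Fibroblast markers summed to 11.5 to 13.8 CPM in NICD4 cells and 8.31 to 10.6 CPM in NICD3 cells, and 1 of 2 tested was higher in the first fit. The part of these markers in the results was not tested. Of the defining markers, ESAM, of endothelial cells, stood at 5.67 to 7.41 CPM in NICD4 cells and 7.66 to 9.14 CPM in NICD3 cells. KDR, another endothelial marker, had 1 read in each group. CDH5, LYZ, HBB and DCN, which mark endothelial, blood and fibroblast cells, had no read in any of the 6 libraries.

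Depth and base composition differed between the groups. NICD4 libraries held 13957335, 16422913 and 11630195 counted reads, against 17867229, 22623424 and 27704492 in NICD3 libraries. The slope of a library's log2 levels on transcript GC content was 0.485, 0.213 and 0.315 log2 units per 10 percentage points in NICD4 libraries, against 0.121, 0.013 and −0.013 in NICD3 libraries. EV libraries had slopes of −0.352 to −0.459, and neither depth nor slope overlapped between NICD4 and NICD3. Differences are therefore given from 3 fits of limma, a linear model across all genes. The first fit uses TMM-scaled levels, the second removes each library's trend on GC content, and the third enters the library's GC slope as a covariate. Since slope and group move together, a difference that follows the slope and one that follows the group cannot be told apart.

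**Figure D1:**
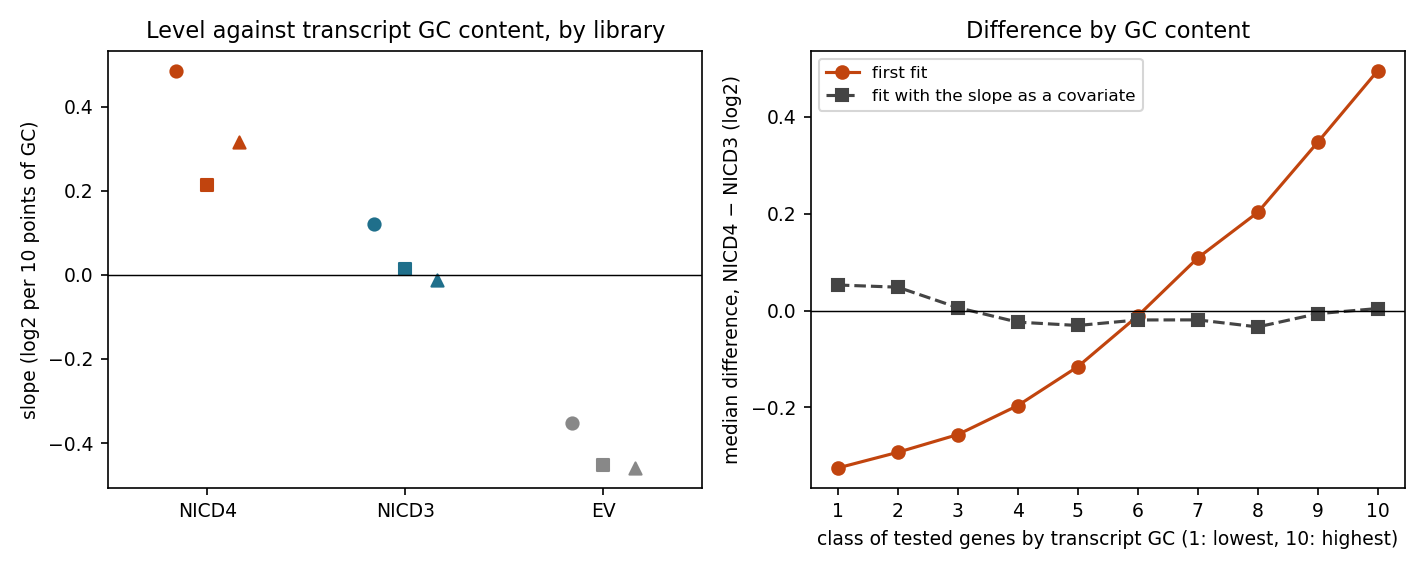
Left, the slope of log2 level on transcript GC content in each NICD4, NICD3 and EV library (one point per library). Right, the median log2 difference NICD4 − NICD3 in each of 10 equal classes of genes by GC content, which climbs from −0.33 to 0.50 in the first fit and stays between −0.03 and 0.05 with the slope as a covariate.

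Of 15122 genes tested, 7417 (49.0%) were called at an adjusted p under 0.05 in the first fit. In NICD4 cells 3546 (23.4%) were higher and 3871 (25.6%) lower. The number split differently, 2828 higher and 4392 lower, when libraries were scaled by their totals alone, which moved the median of all genes by −0.12 on the log2 scale. A difference of over 2-fold was called for 776 higher and 732 lower genes. With the GC trend removed 44.6% of 14737 genes were called, 3244 higher and 3326 lower. With the slope as a covariate 5.97% were called higher and 6.89% lower, while the median standard error was 0.156 in the first fit and 0.162 with the covariate. All 3 fits called 512 genes (3.39%) higher and 500 genes (3.31%) lower. Counts of list members given below are to be read beside these shares. Without replicate 1 of NICD4, whose label fields disagree, the first fit called 2434 genes higher and 2878 lower. Every named gene that was followed through the settings and could still be tested kept its call. PLXNA2 could not be tested there. Not followed were ADARB1, SLC19A1, PCNT, CSTB, genes nearly without reads in 1 group, and genes named only for a marker level or a promoter. The 3 libraries of each group did not overlap for 8197 genes (54.2%), called or not.

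Levels in EV cells place these differences. Of the 3546 genes higher in NICD4 cells, 70.0% had an EV mean below both groups, and of the 3871 lower genes 65.6% had an EV mean above both. NICD4 was thus on the far side of NICD3 from EV for most of the called genes. The picture was more even among genes called in all 3 fits. There EV lay below both for 39.1%, between for 33.6% and above both for 27.3% of the higher genes. For the lower genes these shares were 34.2%, 29.2% and 36.6%. Words such as rose and fell compare NICD4 with NICD3 here, and not with EV.

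In the nucleus an intracellular domain binds the DNA-binding protein RBPJ and a Mastermind coactivator, and the complex switches on repressor genes of the HES and HEY families and the feedback inhibitor NRARP. Ligands of the Jagged and Delta families on a neighbouring cell start the process. RBPJ recognises a sequence with the core TGGGAA. The promoters of 3 genes are shown as examples. The ligand gene JAG1 and the repressor genes HES4 and HES1 were each higher in NICD4 cells in the first fit. Each line gives the 250 bases before the gene start, 5′ to 3′ on the gene's own strand, from RefSeq (GRCh38.p14), with TGGGAA or its complement TTCCCA in capitals where the letters occur. JAG1 lies on the minus strand at chr20:10674000-10674249, HES4 on the minus strand at chr1:1000098-1000347 and HES1 on the plus strand at chr3:194135898-194136147.
JAG1: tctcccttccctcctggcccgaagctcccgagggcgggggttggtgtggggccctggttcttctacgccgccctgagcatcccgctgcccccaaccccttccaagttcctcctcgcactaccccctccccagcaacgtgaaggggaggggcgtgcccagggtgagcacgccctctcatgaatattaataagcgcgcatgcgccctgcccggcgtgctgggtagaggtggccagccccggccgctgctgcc
HES4: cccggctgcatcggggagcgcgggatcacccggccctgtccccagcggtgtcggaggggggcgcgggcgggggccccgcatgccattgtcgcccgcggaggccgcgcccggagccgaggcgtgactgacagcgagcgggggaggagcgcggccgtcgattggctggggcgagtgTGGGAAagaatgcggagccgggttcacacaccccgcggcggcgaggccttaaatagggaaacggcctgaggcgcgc
HES1: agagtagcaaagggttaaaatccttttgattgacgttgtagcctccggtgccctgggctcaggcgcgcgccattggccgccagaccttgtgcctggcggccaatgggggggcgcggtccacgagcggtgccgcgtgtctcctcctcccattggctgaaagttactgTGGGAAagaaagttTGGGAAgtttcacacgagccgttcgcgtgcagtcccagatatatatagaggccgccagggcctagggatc
The core occurs 2 times before HES1, beginning 84 and 70 bases from the start, and 1 time before HES4, beginning 76 bases from it. It does not occur in the window of JAG1. Of 12 ligand, HES, HEY and related genes looked for, 11 had a promoter in the table and 4 held the core. These were HES1, HES4, HEYL and BHLHE41. BHLHE41, with the core beginning 222 bases from the start, was lower in NICD4 cells. JAG2, HES2, HES6 and NRARP, higher in the first fit, lacked the core, as did DLK2, which was lower. On either strand, 19.3% of 16007 promoters of tested genes held the core. A match in these letters describes the sequence and shows no binding.

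JAG1, a ligand that activates NOTCH receptors on adjacent cells, carried the clearest difference in the pathway. It had 24.7, 20.2 and 21.3 CPM in NICD4 cells, against 5.6, 6.89 and 6.82 CPM in NICD3 cells, which stood near the 5.16 to 5.52 CPM of EV cells. Every NICD4 library was above every NICD3 library, with a log2 difference of 1.77 ± 0.12 (SE; limma, adjusted p = 2.4e-07). The value was 1.84 with the GC trend removed and 1.75 with the covariate. JAG1 spans chr20:10618332-10654608 (GRCh37). DLK2, a Delta-like protein reported to modulate NOTCH signalling, fell to 3.8, 3.85 and 4.57 CPM in NICD4 cells, against 8.94, 9.74 and 9.25 CPM in NICD3 cells. Its NICD4 levels were close to the 2.87 to 3.52 CPM of EV cells, and the difference of -1.19 ± 0.12 was called in all 3 fits (limma, adjusted p = 7.3e-06). JAG2, another ligand, had 176, 152 and 174 CPM in NICD4 cells against 121, 126 and 124 CPM in NICD3 cells. Its difference of 0.43 was called in the first fit and was -0.04 once the GC trend was removed. Among 5 ligand genes tested, 2 were higher and 1 lower in the first fit, and 2 lower without NICD4 replicate 1. In cultures measured in bulk, as here, fewer cells with a transcript and less of it per cell cannot be told apart.

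**Figure D2:**
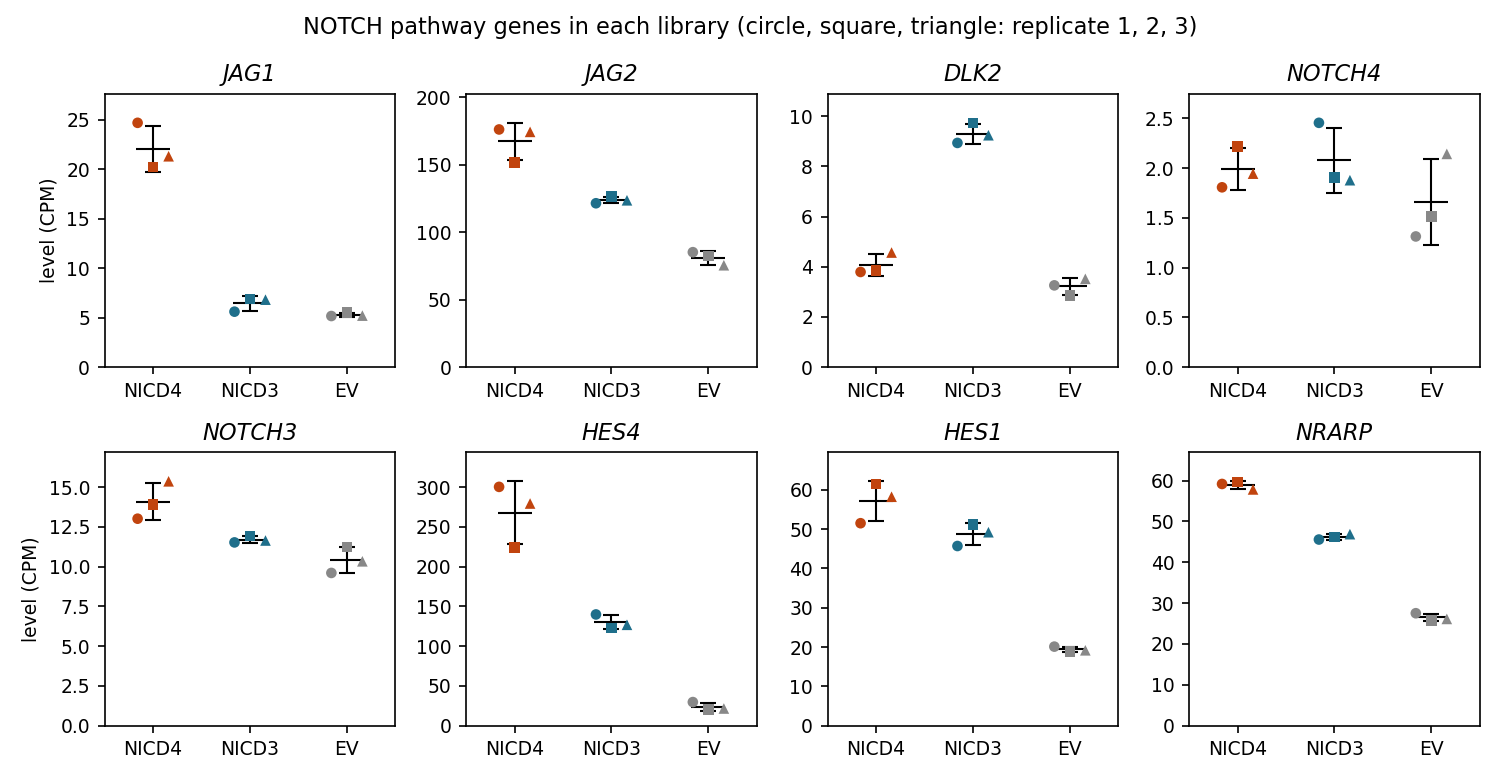
Levels in CPM (vertical axes, from 0) of 8 NOTCH pathway genes in the 3 NICD4, 3 NICD3 and 3 EV libraries; each point is 1 library, and the bar with whiskers is the mean ± SD. JAG1 lies above 20 CPM in NICD4 cells and below 7 CPM in NICD3 cells, DLK2 the other way round, and NOTCH4 overlaps between the groups.

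Receptor genes differed little. NOTCH2 had 39.8, 40.2 and 40.5 CPM in NICD4 cells against 29.7, 32.2 and 30.1 CPM in NICD3 cells, a difference of 0.39 ± 0.07 called in all 3 fits (limma, adjusted p = 0.00061). NOTCH1 had 30.6, 31.2 and 31.8 CPM in NICD4 cells against 22.9, 22.8 and 23.2 CPM in NICD3 cells. Its difference of 0.44 passed in the first fit but was 0.01 with the GC trend removed. NOTCH3 (limma, adjusted p = 0.064) and NOTCH4 (adjusted p = 0.87) were not called.

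The HES, HEY and NRARP repressor genes were mostly higher in NICD4 cells in the first fit, by 5 to 1 of 9 tested, or 3 higher with library totals alone, but few of these calls held in every fit. HES4, a repressor of the family, had 300.4, 224 and 279 CPM in NICD4 cells against 139.9, 123 and 127 CPM in NICD3 cells and 20 to 29.7 CPM in EV cells. The difference of 1.04 ± 0.17 (limma, adjusted p = 0.00039) shrank to 0.28 with the GC trend removed, and to 0.38 with the covariate (adjusted p = 0.056). HES1, the best known direct target, had 51.5, 61.5 and 58.2 CPM in NICD4 cells against 45.7, 51.2 and 49.2 CPM in NICD3 cells. HES1 was called in all 3 fits, at 0.23 ± 0.08 in the first (limma, adjusted p = 0.032), and its call was lost without NICD4 replicate 2 or 3 or NICD3 replicate 1 or 3 (adjusted p = 0.069 to 0.11). It was also lost when libraries were scaled by their totals alone (0.10, adjusted p = 0.51), without the filter on low counts (0.18, adjusted p = 0.20) and in a fit of the 6 libraries only (adjusted p = 0.11), while the value was 0.40 with the covariate. NRARP, a feedback inhibitor, had 59.2, 59.7 and 57.8 CPM in NICD4 cells against 45.6, 46.2 and 46.9 CPM in NICD3 cells. Its difference of 0.35 turned to -0.22 with the GC trend removed and was 0.37 with the covariate, and its call was lost with library totals alone (0.22, adjusted p = 0.055). HES2 and HES6 were higher by 0.74 and 0.52 in the first fit, and HES6 turned to -0.09 with the GC trend removed. BHLHE41, a related repressor of the circadian clock, fell to 0.904, 0.261 and 0.292 CPM in NICD4 cells, against 1.39, 2.4 and 1.69 CPM in NICD3 cells. Replicate 1 of NICD4 stood highest of its group there, and the difference of -1.96 ± 0.36 was called in all 3 fits (limma, adjusted p = 0.00089).

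Machinery around the intracellular domain moved in both directions, with 11 of 38 tested genes higher and 9 lower in the first fit, and 2 higher and 1 lower in all 3 fits. The first counts are close to the shares over all tested genes, 23.4% higher and 25.6% lower. TLE3, a corepressor that HES proteins recruit, had 85.8, 59.3 and 62.5 CPM in NICD4 cells against 32.9, 28 and 30.1 CPM in NICD3 cells (difference 1.17 ± 0.14; limma, adjusted p = 5.4e-05), which was 0.58 with the covariate. RBPJ had 39.2, 37.4 and 42.6 CPM in NICD4 cells against 29.8, 33.1 and 32.9 CPM in NICD3 cells, a difference of 0.32 ± 0.07 that was 0.64 with the GC trend removed. Its call was lost when libraries were scaled by their totals alone (0.19, adjusted p = 0.12). APH1A, a subunit of the gamma-secretase that frees the domain, was lower at 102 to 106 CPM in NICD4 cells against 134 to 141 CPM in NICD3 cells. The fringe gene LFNG (1.08), the NOTCH regulator DTX1 (1.30) and the coactivator gene MAML2 (-2.87) were called in the first 2 fits and not with the covariate, where they stood at 0.40, 0.69 and -1.61. Of 24 other reported target genes 7 were higher and 6 lower in the first fit, again close to those shares, and 0 and 3 in all 3 fits. PLAU, which encodes the urokinase plasminogen activator, fell to 59.5, 71.3 and 61.3 CPM in NICD4 cells, against 121, 120.4 and 123 CPM in NICD3 cells and 14.5 to 15.3 CPM in EV cells. The cell cycle gene CCND1 was at 257 to 271 CPM in NICD4 cells against 334 to 345 CPM in NICD3 cells. GATA3, a target in T cells, had 6.14, 2.35 and 3.5 CPM in NICD4 cells against 1.2, 0.861 and 1.14 CPM in NICD3 cells, and its 1.76 was 0.28 with the covariate.

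By the fixed rule for the largest differences among protein-coding genes, 15 rises and 15 falls were taken. RIMS2, a scaffold of the presynaptic release site, fell the most. It had 0.452, 0.261 and 0.875 CPM in NICD4 cells against 12, 13.5 and 14 CPM in NICD3 cells and 0.153 to 0.317 CPM in EV cells, a difference of -4.64 ± 0.30 (limma, adjusted p = 2.4e-07). NLRP4, of the NLR family of innate immune regulators, had 1.27, 0.978 and 1.46 CPM in NICD4 cells against 28.3, 25.1 and 24.5 CPM in NICD3 cells. The spread within each group was small beside the gap, and the difference was -4.35 ± 0.13 (limma, adjusted p = 2.8e-11). EV cells held 9.5 to 10.9 CPM, between the groups. NLRP1, an inflammasome sensor, fell to 2.62, 2.48 and 2.24 CPM in NICD4 cells, against 14.8, 17.2 and 16.7 CPM in NICD3 cells and 42.6 to 50.6 CPM in EV cells. NLRP4 lies at chr19:56347944-56393218 and NLRP1 at chr17:5402748-5487832, on different chromosomes (GRCh37).

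Other falls of this rule covered several roles. ALDH1L1, a folate enzyme and astrocyte marker, fell to 4.67 to 7.14 CPM in NICD4 cells, against 27.8 to 31.9 CPM in NICD3 cells. Its EV level was below both, at 1.23 to 1.72 CPM. MAP7D3, a microtubule-associated protein, fell to 5.96, 4.5 and 5.35 CPM in NICD4 cells, against 24.8, 25.4 and 24.9 CPM in NICD3 cells, where it stood at the level of EV cells (23.8 to 25.9 CPM). CD33, a sialic acid-binding lectin of myeloid cells, fell by 2.41 on the log2 scale, and the membrane protein gene TM4SF1 fell by 2.20. MAB21L4 had a difference of -2.40. For 3 of the 15 falls the measurement is less certain. FTH1, the ferritin heavy chain (-2.48, and -1.05 with the covariate), and TUBA1B, an alpha tubulin (-2.22), have many near-identical copies among which the authors' counting could split reads. TUBA1B and LSM1, of the mRNA decay machinery (-2.24), were not called with the covariate, at -0.31 and -0.60.

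Among the rises ZNF582, a zinc finger gene, came first with 4.79, 3.19 and 3.4 CPM in NICD4 cells against 0.189, 0.136 and 0.479 CPM in NICD3 cells (3.70 ± 0.47; limma, adjusted p = 7.2e-05). PCBP3, of the poly(C)-binding proteins, followed with 52.9, 24.1 and 32.5 CPM in NICD4 cells against 5.98, 3.9 and 3.43 CPM in NICD3 cells. Replicate 1 of NICD4 was highest here, and the difference of 2.99 became 1.72 with the covariate, still called. IRX6, a homeobox gene, had 3.8, 3.72 and 4.08 CPM in NICD4 cells against 0.315, 0.498 and 0.553 CPM in NICD3 cells. CABP1, a neuronal calcium-binding protein, rose by 2.58, and FTCD, an enzyme of histidine breakdown, by 2.52. Rises of 2.17 for QPRT, an enzyme of NAD synthesis, and of 1.98 for GPD1, the cytosolic glycerol-3-phosphate dehydrogenase, were called in all 3 fits. So were those of TMEM63C (2.42, and 1.5 with the covariate), RTN4RL1 (2.21), LGI3 (2.11), VSTM1 (2.05), GRIK5 (2.05, and 0.91 with the covariate) and HRCT1 (2.03). QPRT stood above both groups in EV cells, at 18.4 to 19.4 CPM. APOA1, the main protein of high-density lipoprotein, had 14.1, 5.74 and 9.14 CPM in NICD4 cells against 3.27, 2.27 and 1.77 CPM in NICD3 cells, and its 1.91 fell to 0.40 with the covariate (adjusted p = 0.47).

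Some genes were read almost entirely in 1 of the 2 groups. GCG, which encodes proglucagon, had 28, 30 and 13 reads in NICD4 libraries and none in NICD3 or EV libraries. Against a floor of 3 reads over the NICD3 group this is at least 42.0-fold higher. ZNF883 had 10, 24 and 11 reads in NICD4 libraries, against 1, 0 and 1 in NICD3 libraries and 95 to 134 in EV libraries. Its ratio at equal depth was 39.9 (exact 95% binomial interval 10.4 to 340). MUC15, a membrane mucin, had 0, 0 and 1 read in NICD4 libraries, against 37, 96 and 111 in NICD3 libraries and 157 to 284 in EV libraries. SMIM10 had no read in NICD4 libraries, against 35, 42 and 47 in NICD3 libraries, which is at least 23.3-fold lower. Such intervals and floors cover counting error only.

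Simple epithelial keratins pair up to form the filaments of gut-type epithelium, and the main pair was lower in NICD4 cells. KRT18 had 1569.5, 1649 and 1556 CPM in NICD4 cells against 5114, 4525 and 4437 CPM in NICD3 cells and 349 to 459 CPM in EV cells. Its difference was -1.56 ± 0.10 (limma, adjusted p = 2.4e-07) and grew to -1.70 with the covariate. KRT8, its partner, had 9709, 6347 and 7619.5 CPM in NICD4 cells against 14933, 11517 and 11346 CPM in NICD3 cells, a difference of -0.69 that became -1.40 with the covariate. Both genes have processed copies that could share reads, so their exact levels are uncertain. KRT15 fell to 7.95 to 8.94 CPM in NICD4 cells, against 17.9 to 18.4 CPM in NICD3 cells, and KRT80 fell by 0.86 on the log2 scale. Over 16 keratin genes tested, 5 were lower and 3 higher in the first fit, and 4 lower and 0 higher in all 3 fits. The first counts are near the shares over all tested genes, 25.6% lower and 23.4% higher. In all 3 fits these shares were 3.31% and 3.39%. The 3 higher members became 0 without NICD4 replicate 1, and 1 without NICD4 replicate 3 or NICD3 replicate 1 or 2. The list's median difference was −0.10, against −0.02 over all tested genes.

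Genes of calcium-binding S100 proteins and of the annexins that pair with them included several that were lower in NICD4 cells. S100A14 had 4.07, 2.35 and 2.92 CPM in NICD4 cells against 15, 13.9 and 12.6 CPM in NICD3 cells, a difference of -2.17 ± 0.19 (limma, adjusted p = 3.5e-06). ANXA1, an anti-inflammatory phospholipid-binding protein, had 50.2, 84.4 and 72.3 CPM in NICD4 cells against 188, 267 and 264 CPM in NICD3 cells. The gap held in every library, though -1.81 in the first fit became -0.77 with the covariate. S100A10 and its partner ANXA2 were lower by -0.78 and -0.47, both called in all 3 fits, and ANXA2 was at -0.23 with the GC trend removed. A pseudogene named after ANXA2 could share its reads, so its exact level is uncertain. ANXA3 was lower too, at 27.7 to 57.4 CPM in NICD4 cells against 103 to 123 CPM in NICD3 cells, and the difference of -1.49 became -0.44 with the covariate. Of 18 genes tested 7 were lower and 3 higher in the first fit, 11 and 0 with the covariate, and 5 and 0 in all 3 fits. Over all tested genes the lower and higher shares were 25.6% and 23.4% in the first fit. They were 6.89% and 5.97% with the covariate, and 3.31% and 3.39% in all 3 fits. Without NICD4 replicate 1 or NICD3 replicate 2 or 3 the first fit had 1 higher member. Summed levels of the list overlapped, at 8258 to 10675 CPM in NICD4 cells and 8616 to 10434 CPM in NICD3 cells. Among the 15 largest falls were also 2 genes of secreted kallikrein proteases. KLK6 had 2.71, 3.72 and 4.38 CPM in NICD4 cells against 22.7, 19.8 and 19.9 CPM in NICD3 cells, and KLK10 had 2.62, 1.7 and 1.75 CPM in NICD4 cells against 10.1, 9.2 and 8.77 CPM in NICD3 cells.

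Of 30 junction and adhesion genes, 16 were lower and 4 higher in the first fit, but 3 lower and 0 higher in all 3. The desmosomal cadherin gene DSC2 fell to 4.16, 6.32 and 5.54 CPM in NICD4 cells, against 10.5, 10.3 and 10.1 CPM in NICD3 cells, and the difference of -0.96 became -0.61 with the covariate. CLDN4, a tight junction claudin, was lower at 54.3 to 65.2 CPM in NICD4 cells against 69.6 to 82.3 CPM in NICD3 cells, and its -0.35 became -0.58 with the GC trend removed. The scaffold gene TJP3 was lower by -0.44 (-0.88 with the GC trend removed), a call lost without NICD4 replicate 3 or NICD3 replicate 1 (adjusted p = 0.062 and 0.057). The epithelial transcription factor ELF3 fell to 25.6, 18.8 and 20.6 CPM in NICD4 cells, against 34.8, 32.5 and 26.7 CPM in NICD3 cells, and the difference of -0.54 became -0.95 with the covariate. Against this direction, the brush border gene VIL1 had 1.72, 1.63 and 0.972 CPM in NICD4 cells against 0.189, 0.272 and 0.221 CPM in NICD3 cells (2.38 ± 0.30; limma, adjusted p = 6.4e-05). GATA6, a transcription factor of endodermal epithelium, had 6.61 to 7.69 CPM in NICD4 cells against 4.02 to 4.49 CPM in NICD3 cells. CDX2, an intestinal transcription factor, was higher by 0.57 in the first fit and by 0.10, not called, with the covariate. EV cells stood below both groups for DSC2 (1.13 to 1.49 CPM), CLDN4 (32.5 to 35.2 CPM), TJP3 (2.75 to 3.18 CPM) and ELF3 (5.07 to 7.22 CPM). The same held for GATA6 and CDX2, while for VIL1 the EV mean lay between the groups.

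**Figure D3:**
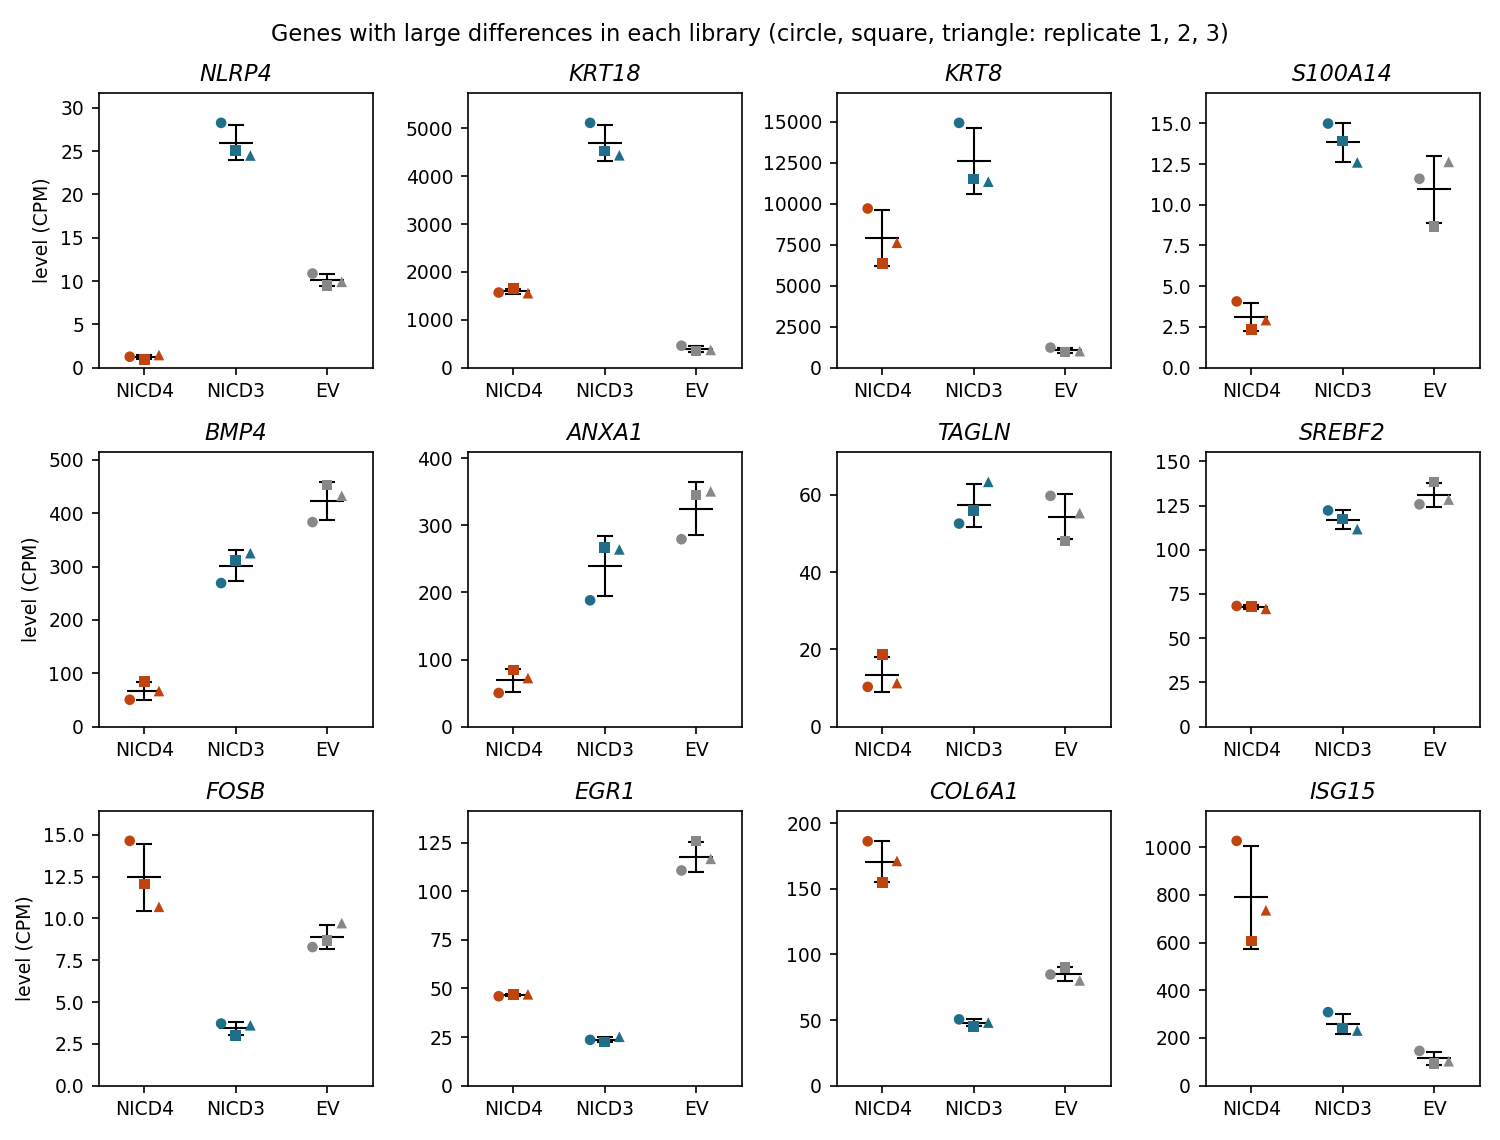
Levels in CPM (vertical axes, from 0) of 12 genes in the 3 NICD4, 3 NICD3 and 3 EV libraries; each point is 1 library, and the bar with whiskers is the mean ± SD. NICD4 and NICD3 libraries do not overlap for any of the 12, and EGR1 stands highest in EV cells, at 111 to 126 CPM.

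Collagen VI, a beaded filament of the matrix around cells, was encoded at higher levels in NICD4 cells through 2 of its chains. COL6A1 had 186, 155 and 171 CPM in NICD4 cells against 50.6, 45.2 and 48.1 CPM in NICD3 cells and 80.2 to 90.3 CPM in EV cells, a difference of 1.83 ± 0.11 (limma, adjusted p = 1.5e-07). COL6A2 had 339.6, 215 and 266 CPM in NICD4 cells against 104, 98.6 and 93.7 CPM in NICD3 cells (1.45 ± 0.13; adjusted p = 4.3e-06; 0.95 with the covariate). The 2 genes are neighbours at chr21:47401651-47424964 and chr21:47518011-47552763 (GRCh37). COL6A3, the third chain gene, on chromosome 2, went the other way, with 0.813, 0.717 and 0.778 CPM in NICD4 cells against 1.7, 1.63 and 1.88 CPM in NICD3 cells. COL7A1, of the anchoring fibrils, and VCAN, a large proteoglycan, were higher by 1.22 and 0.48. They were 1.01 and 1.08 with the covariate, and COL7A1 was 0.73 with the GC trend removed. The call of VCAN was lost with library totals alone (0.35, adjusted p = 0.16), and without NICD4 replicate 2 or NICD3 replicate 1 (adjusted p = 0.053 and 0.054). THBS1, a matrix protein that activates TGF-beta, fell to 12.8, 11 and 14.5 CPM in NICD4 cells, against 33.3, 39.3 and 42.9 CPM in NICD3 cells and 1.18 to 1.3 CPM in EV cells. COL9A3 fell by 1.66 on the log2 scale (-0.83 with the covariate). Among 24 collagen and matrix genes 11 were higher and 5 lower in the first fit, and 4 and 5 in all 3 fits.

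COL6A1 and COL6A2 belong to a run of genes at the far end of the long arm of chromosome 21 that was higher in NICD4 cells almost throughout. The stretch was chosen after its values were seen, and it begins at position 42000000 (GRCh37). It held 52 tested genes with a mean of at least 2 CPM over the 2 groups, lying between 42539728 and 48085036. In the first fit 41 of the 52 (78.8%) were higher and 1 was lower, against 26.5% higher among all other genes at that level. All 3 fits called 27 higher and 0 lower. The median difference was 0.75 in the first fit, 0.64 with the GC trend removed and 0.56 with the covariate. The 61 genes of chromosome 21 before that position had medians of −0.15, −0.02 and 0.02 in the same order. Each NICD4 library showed it, with median log2 ratios to the NICD3 mean of 0.83, 0.65 and 0.72 in replicates 1, 2 and 3. NICD3 libraries lay between −0.05 and 0.03 around their own mean.

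Other groups of the series help to place this run. The same 52 genes had a median log2 ratio to NICD3 of 0.12 in NICD1 cells, −0.06 in NICD2 cells and −0.18 in EV cells. PFKL, the liver type of the glycolytic enzyme phosphofructokinase, had 374, 234 and 275 CPM in NICD4 cells against 109, 98.1 and 94.5 CPM in NICD3 cells, and the difference of 1.53 became 0.98 with the covariate. LSS, lanosterol synthase of the cholesterol pathway, had 72.4, 68.9 and 69.4 CPM in NICD4 cells against 49.5, 49.5 and 49.5 CPM in NICD3 cells. PCBP3 and FTCD, named above among the largest rises, lie in the stretch too. Other members rose too, such as the RNA-editing enzyme ADARB1 (1.14), the folate carrier SLC19A1 (0.99) and the centrosome protein PCNT (0.79). CSTB, a protease inhibitor, was the lower gene (−0.79, and 0.13 with the covariate). In a scan of 2200 windows of 25 neighbouring nuclear genes, the highest window median with the covariate was 0.63, in this stretch. Outside chromosome 21 the window medians with the covariate ran from −0.33 to 0.35. Mitochondrial genes were left out of the scan. The 28 of them at 2 CPM or more had a median difference of 0.80 in the first fit. It was 1.00 with the GC trend removed and 0.62 with the covariate.

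**Figure D4:**
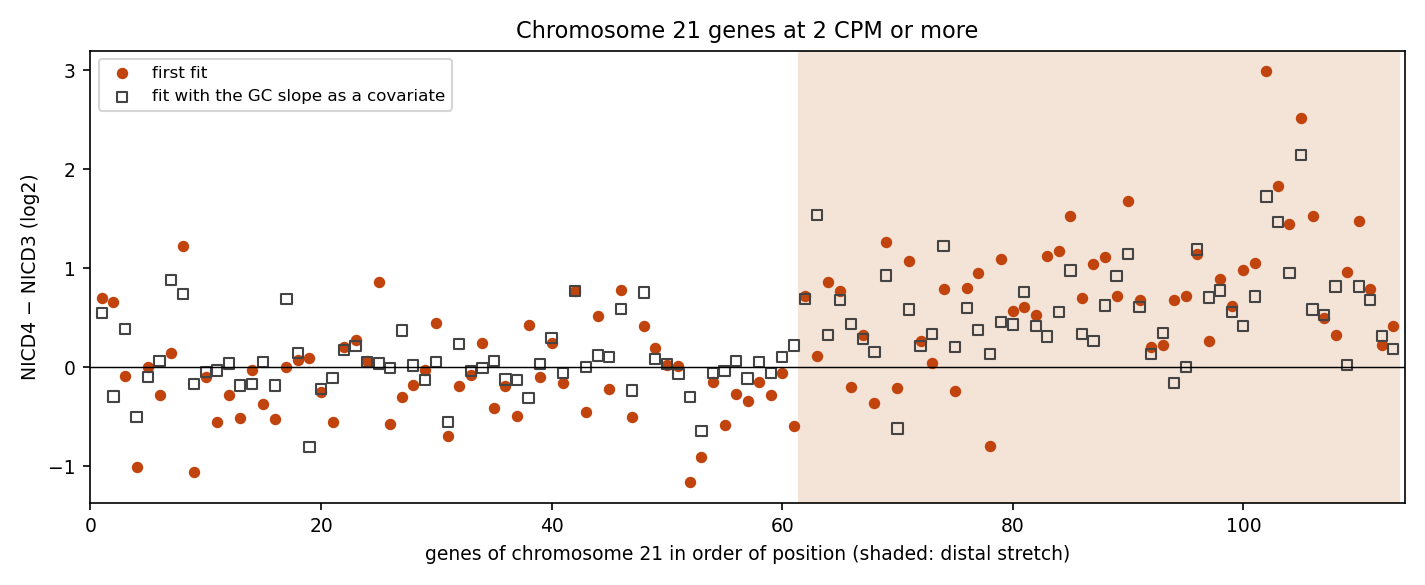
Log2 difference NICD4 − NICD3 (vertical axis) of the 113 chromosome 21 genes at 2 CPM or more, in order of position (horizontal axis), in the first fit (filled) and with the GC slope as a covariate (open). The 52 genes of the shaded distal stretch have medians of 0.75 and 0.56, against −0.15 and 0.02 for the 61 genes before it.

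BMP4, a secreted growth factor of the TGF-beta family, was among the largest falls. It had 50.5, 84.8 and 66.8 CPM in NICD4 cells against 269, 312 and 325 CPM in NICD3 cells and 384 to 453 CPM in EV cells, a difference of -2.19 ± 0.18 (limma, adjusted p = 1.6e-06; -1.39 with the covariate). BAMBI, a decoy receptor that dampens this pathway, had 4.52, 7.04 and 7.19 CPM in NICD4 cells against 3.46, 2.9 and 2.87 CPM in NICD3 cells. SMAD4, the shared signal carrier, was higher by 0.29 in the first fit and by 0.58 with the GC trend removed. The call of SMAD4 was lost with library totals alone (0.16, adjusted p = 0.17) and without the filter on low counts (0.25, adjusted p = 0.051). The receptor gene TGFBR2 was lower by -1.80 in the first fit and by -0.17, not called, with the covariate. Over the 27 pathway genes tested, 2 were higher and 6 lower in the first fit, and 7 and 2 with the covariate. The number higher in the first fit was 4 without NICD4 replicate 1.

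Of 24 contractile genes tested, 12 were lower and 5 higher in the first fit, and 1 lower and 0 higher in all 3 fits. Their summed level was not lower, at 4596 to 6471 CPM in NICD4 cells and 4327 to 4953 CPM in NICD3 cells. The 5 higher became 2 without NICD4 replicate 1 or NICD3 replicate 3, and 3 without NICD3 replicate 2. The gene lower in all 3 fits was TAGLN, an actin-binding protein of smooth muscle, with 10.3, 18.6 and 11.3 CPM in NICD4 cells against 52.6, 56 and 63.4 CPM in NICD3 cells. MYL9, a myosin light chain, was lower by -2.11 in the first fit and by -0.65, not called, with the covariate (adjusted p = 0.063). YAP1, the coactivator that senses cell shape and contact, fell to 9.31, 12.5 and 11 CPM in NICD4 cells, against 19.6, 23 and 23.1 CPM in NICD3 cells, and the difference of -1.0 became -0.41 with the covariate. AJUBA, a LIM protein of the same pathway, had 8.4, 11.7 and 10.4 CPM in NICD4 cells against 19.4, 23.3 and 23.6 CPM in NICD3 cells, and the difference of -1.12 became -0.57 with the covariate. The YAP target gene CCN1 fell by 0.63 on the log2 scale (-0.39 with the covariate), whereas ANKRD1, another target, rose to 2.98, 4.11 and 3.5 CPM in NICD4 cells, against 1.51, 1.68 and 1.62 CPM in NICD3 cells, and the difference of 1.10 became 1.76 with the covariate. Of 14 YAP and TEAD genes 6 were lower and 1 higher in the first fit, and 3 and 1 in all 3 fits.

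Immediate early transcription factors, which cells switch on within minutes of a growth signal, were higher for 8 and lower for 2 of 20 genes in the first fit, and for 3 and 0 in all 3 fits. EGR1 had 46, 46.8 and 47 CPM in NICD4 cells against 23.5, 22.4 and 25.1 CPM in NICD3 cells (0.98 ± 0.07; limma, adjusted p = 9.1e-07). The libraries of each group lay close together, and EV cells stood above both at 111 to 126 CPM. FOSB had 14.6, 12.1 and 10.7 CPM in NICD4 cells against 3.71, 2.99 and 3.61 CPM in NICD3 cells (1.84 ± 0.15; limma, adjusted p = 2.1e-06). ERRFI1, which blocks the EGF receptor as feedback, fell to 32.1, 49.9 and 42.3 CPM in NICD4 cells, against 85.1, 109 and 113 CPM in NICD3 cells, and the difference of -1.32 became -0.61 with the covariate.

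Growth factor genes split by member. The EGF-type ligands TGFA and NRG1 were lower by -0.97 and -0.90, and HBEGF was higher by 0.56, all called in the 3 fits, and NRG1 was at -0.55 with the covariate. Of the 12 receptors and ligands of this family 5 were lower and 1 higher in the first fit, and 3 and 1 in all 3. Without NICD4 replicate 1 the 5 lower members became 3. FGF2 had 1.9, 2.61 and 2.53 CPM in NICD4 cells against 7.68, 7.66 and 8.44 CPM in NICD3 cells, and FGF9 had 2.8, 3.39 and 3.5 CPM in NICD4 cells against 7.93, 10.2 and 10.5 CPM in NICD3 cells. For FGF9, EV cells stood at 0.153 to 0.308 CPM, far below both. INSR, the insulin receptor, had 24.3, 17.5 and 18.1 CPM in NICD4 cells against 9.13, 10.2 and 10.3 CPM in NICD3 cells. The Eph receptor gene EPHB2 rose to 54.1, 39.2 and 43.3 CPM in NICD4 cells, against 23.9, 21 and 22.2 CPM in NICD3 cells, while EPHA2 fell to 79.5, 81.7 and 81.7 CPM in NICD4 cells, against 123, 123 and 130.4 CPM in NICD3 cells. The difference of EPHB2 was 1.01 in the first fit and 0.59 with the covariate. That of EPHA2 was -0.63 in the first fit and -0.97 with the GC trend removed.

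Cholesterol synthesis genes were mostly lower in NICD4 cells, whichever fit was used. SREBF2 is the pathway's master transcription factor. Of 27 genes tested 15 were lower and 3 higher in the first fit, 18 and 1 with the covariate, and 10 and 1 in all 3 fits. The 3 higher members became 1 without NICD4 replicate 1 or NICD3 replicate 3, and 5 without NICD4 replicate 2. The median difference was −0.29 in the first fit and −0.41 with the covariate, against −0.02 and 0.00 over all tested genes. Summed levels of the list overlapped, at 3137 to 4081 CPM in NICD4 cells and 3391 to 3887 CPM in NICD3 cells. SREBF2 had 68.2, 68.1 and 66.6 CPM in NICD4 cells against 122, 117 and 112 CPM in NICD3 cells (-0.79 ± 0.07; limma, adjusted p = 2.1e-06). INSIG1, which holds the SREBP proteins back, fell by 0.63 on the log2 scale. FDPS, farnesyl diphosphate synthase, fell to 14.6, 36.2 and 21.7 CPM in NICD4 cells, against 71, 82.8 and 79.1 CPM in NICD3 cells, and the difference of -1.78 became -0.72 with the covariate. It has processed copies, and replicate 2 of NICD4 lay well above the others of its group. HMGCS1 (-1.25) was at -0.75 and not called with the covariate (adjusted p = 0.067). LSS, on chromosome 21, was the member higher in all 3 fits, at 0.50 in the first and 0.24 with the GC trend removed.

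Glucose and hypoxia genes had 7 higher and 9 lower of 34 in the first fit, close to the shares over all tested genes, and 3 and 2 in all 3 fits. The glucose transporter gene SLC2A1 fell to 133, 183 and 155 CPM in NICD4 cells, against 339, 333 and 346 CPM in NICD3 cells, and the difference of -1.12 became -0.69 with the covariate. NDRG1 and CA12, a carbonic anhydrase, both hypoxia-responsive, were higher by 1.06 and 1.17. LDHA, lactate dehydrogenase, was lower by -1.04 in the first fit and by -0.26, not called, with the covariate. A pseudogene named after LDHA could share its reads.

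**Figure D5:**
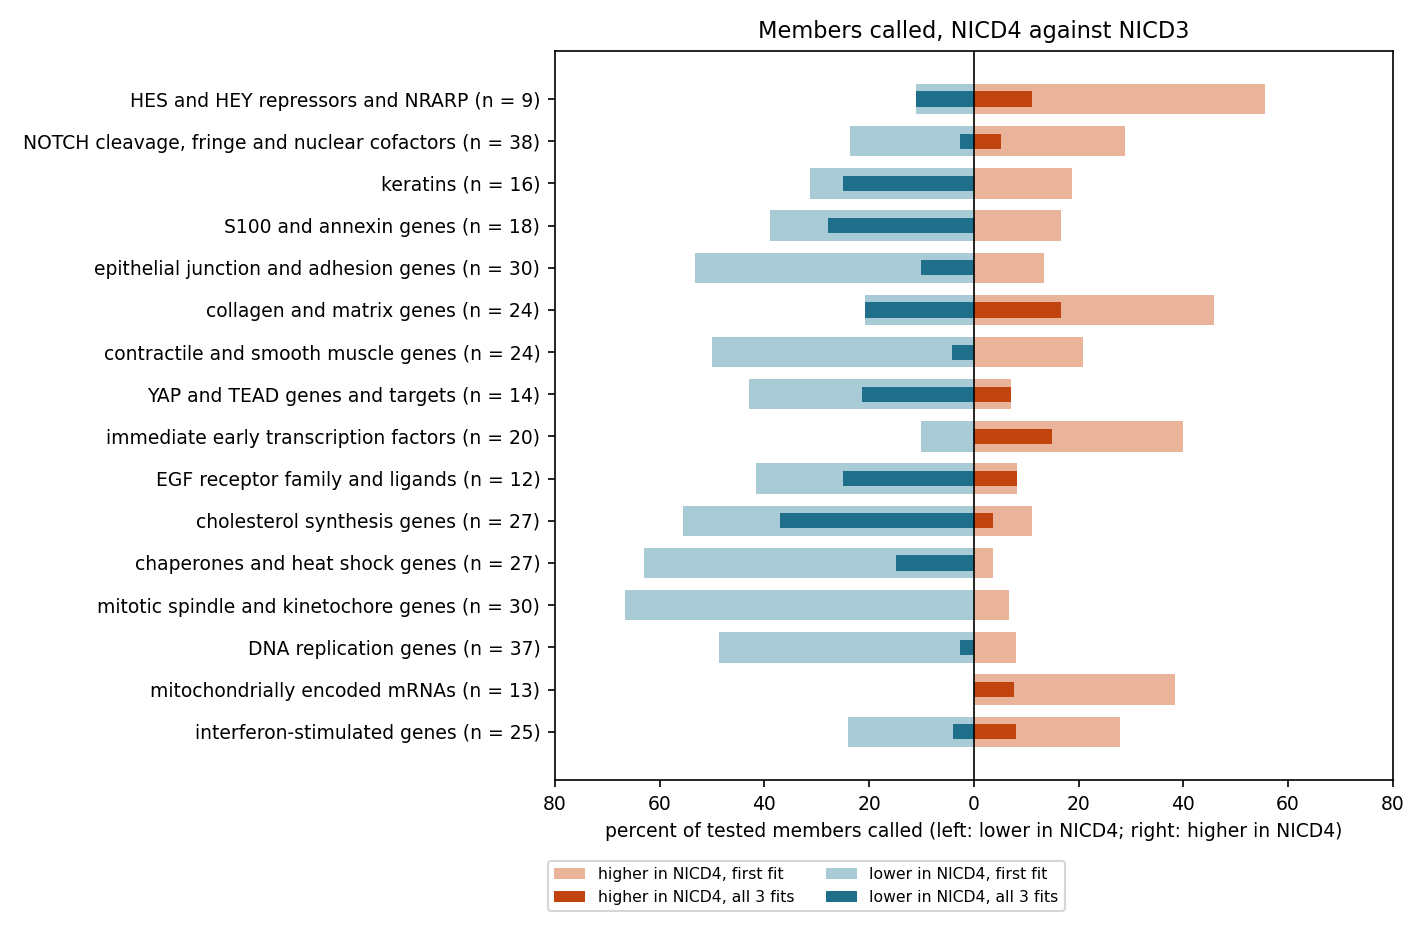
Percent of the tested members of 16 gene lists called lower (left) or higher (right) in NICD4 cells; wide pale bars are the first fit and narrow dark bars the genes called in all 3 fits. Cholesterol synthesis, S100 and annexin genes and keratins keep lower members in all 3 fits, and mitotic genes keep none. Over all tested genes 25.6% were lower and 23.4% higher in the first fit, and 3.31% and 3.39% in all 3 fits.

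Growth-related lists lost most of their calls with the covariate. So did the tested genes as a whole, with 7417 calls in the first fit and 1945 with the covariate. Of all tested genes 25.6% were lower in the first fit and 6.89% with the covariate. Mitotic spindle and kinetochore genes, whose transcripts are AT-rich, were lower for 20 and higher for 2 of 30 in the first fit. They were lower for 11 and higher for 4 with the GC trend removed. With the covariate they were lower for 2 and higher for 0, and none was called in all 3 fits. Without NICD4 replicate 1 the first fit had 12 lower members, and without NICD3 replicate 3 it had 13. KIF20A, a kinesin of cell division, had 5.51, 13 and 8.46 CPM in NICD4 cells against 21.7, 26.4 and 26 CPM in NICD3 cells, and its -1.53 became -0.27. DNA replication genes were lower for 18 and higher for 3 of 37 in the first fit. These counts were 13 and 3 with the GC trend removed, and 5 and 0 with the covariate. Summed levels overlapped for the mitotic list, at 3809 to 4415 CPM in NICD4 cells and 3868 to 4091 CPM in NICD3 cells. They also overlapped for the replication list, at 5260 to 5973 and 5549 to 6003 CPM in the same order. Chaperone genes were lower for 17 and higher for 1 of 27 in the first fit, and for 15 and 2 with the GC trend removed. In all 3 fits 4 chaperone genes remained lower. Among them the cytosolic chaperone HSP90AB1 fell to 2063 to 2409 CPM in NICD4 cells, against 3243 to 3403 CPM in NICD3 cells, and the difference of -0.59 became -0.30 with the covariate. CCT2, a chaperonin subunit, had 166, 309 and 221 CPM in NICD4 cells against 449.9, 496 and 512 CPM in NICD3 cells, and its -1.11 became -0.22, not called. HSPA8 (-0.86), which has processed copies, and the cyclin gene CCNB1 (-0.68) lost their calls likewise, at -0.33 and -0.25. The median GC content of transcripts was 42.9% in the mitotic list and 45.9% in the chaperone list, against 49.0% over all tested genes. The part of base composition in these calls was not tested.

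Messenger RNAs encoded by mitochondrial DNA had no lower member in any of the 3 fits. Of 13 genes 5 were higher in the first fit, 12 with the GC trend removed, 7 with the covariate and 1 in all 3 fits. The first fit had 3 without NICD4 replicate 3 or NICD3 replicate 3. MT-ND5, a subunit of respiratory complex I, had 3676, 2845 and 3398 CPM in NICD4 cells against 1482, 2352 and 2043 CPM in NICD3 cells and 2911 to 2978 CPM in EV cells. Replicate 1 of NICD3 was lowest of the 6 libraries.

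Interferon-stimulated genes had 7 higher and 6 lower of 25 in the first fit, close to the shares over all tested genes, and 2 and 1 in all 3. ISG15, a ubiquitin-like modifier, had 1027, 607 and 735 CPM in NICD4 cells against 308, 241 and 231 CPM in NICD3 cells. Replicate 1 of NICD4 was highest there, and the difference of 1.58 ± 0.22 became 0.59 with the covariate. OASL, an antiviral protein, had 3.8, 3.59 and 4.08 CPM in NICD4 cells against 0.818, 0.906 and 1.11 CPM in NICD3 cells, and IFI35 fell to 4.52, 5.28 and 4.57 CPM in NICD4 cells, against 11.6, 10.2 and 9.84 CPM in NICD3 cells. Of 19 NF-kB subunits, targets and chemokines tested, 7 were higher and 4 lower in the first fit, and 0 and 1 in all 3. NFKB1, a subunit of NF-kB, fell to 7.23, 13.2 and 10.2 CPM in NICD4 cells, against 24.6, 26.8 and 27.8 CPM in NICD3 cells, and the difference of -1.41 became -0.52 with the covariate.

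Axon guidance genes included a ligand and its receptor that moved in opposite directions. SEMA3A, a secreted repellent, had 0, 0.196 and 0.292 CPM in NICD4 cells against 2.58, 3.04 and 2.17 CPM in NICD3 cells (-3.97 ± 0.59; limma, adjusted p = 0.00024; -2.61 with the covariate). NRP1, its receptor, had 4.16, 4.95 and 3.89 CPM in NICD4 cells against 1.2, 1.04 and 1.29 CPM in NICD3 cells (1.83 ± 0.21; adjusted p = 3.2e-05) and 10.4 to 13 CPM in EV cells. SEMA3F, a related ligand, was higher by 1.26 (0.59 with the covariate), and the plexin receptor gene PLXNA2 by 2.41. PLXNA2 passed the filter on low levels through the NICD4 libraries alone, and was not tested when 1 of them was left out. The urokinase receptor gene PLAUR was higher at 27.1 to 28.1 CPM in NICD4 cells against 18.2 to 20.6 CPM in NICD3 cells, opposite to its ligand PLAU. SERPINB5, a serpin of epithelial cells, had 0.813, 0.782 and 0.778 CPM in NICD4 cells against 0.252, 0.0453 and 0.184 CPM in NICD3 cells.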

How the data were processed

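The deposited table holds log2 of raw read counts plus 1 for 31352 genes in 15 libraries, per the file headers, and undoing the logarithm returned whole reads within 0.001 throughout (largest deviation 0.00076). Per the submitters' processing notes reads were aligned with TopHat2 2.0.6 and counted with HTSeq on GRCh37. The annotation release, the strand setting and the treatment of vector reads are not given in the sources used here. A gene was tested if 3 or more libraries reached 0.548 CPM, which is 10 reads at median depth, and if all libraries together held 15 reads. Reads were scaled by TMM factors computed in R 4.3.3 and log2 transformed after adding 1 read (0.0544 CPM), which understates the fold changes of low genes. limma 3.58.1 (trended, robust variance; statmod 1.5.0) was fitted to all 15 libraries with 1 mean per group, for the two-sided contrast NICD4 minus NICD3, with Benjamini-Hochberg adjustment across the 15122 genes. The plan set a negative-binomial test had the unit been raw counts. As the deposited unit is log2, it was not used.

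Transcript GC content was known for 14737 tested genes (97.5%). Its trend was removed by loess with a span of 0.5, and the fit with the GC slope as a covariate was added after the data were seen. Deviations from the group means of same-numbered NICD4 and NICD3 libraries correlated at 0.666, 0.432 and 0.272 across genes. With the GC trend removed these values were 0.546, 0.372 and 0.136. Pairs of unlike number reached 0.653, and the labels give no reason for pairing, so these values do not establish pairs. The 3 fits reported do not pair libraries. Same-numbered libraries were treated as a set only in an alternative fit, the replicate block.

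Named genes were NOTCH1 to NOTCH4, the 15 largest rises and 15 largest falls, members of 49 gene lists, and up to 5 genes in each direction nearly without reads in 1 group. The largest differences were taken among called protein-coding genes of at least 2 CPM over the 6 libraries, with groups that do not overlap, a call in every fit that left 1 library out, and the same direction without the GC trend. Some members that the rule takes are counted in their lists but not reported here by name. Lists and rules were chosen with earlier results of these data known. Set tests were therefore not run.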

Additional observations from a re-analysis of the deposited data

How the results depend on the processing

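The count of genes called, 7417 in the first fit, kept within 1.5 times of that number under every other setting tried and moved to 1945 with the GC slope as a covariate (903 higher and 1042 lower in NICD4 cells), an alternative chosen after seeing the data. Leaving out 1 library gave 5312 to 8137 calls, of them 2434 to 3833 higher and 2859 to 4304 lower, and 2171 higher and 2505 lower genes were called in every such fit. Median-ratio factors gave 3732 higher and 3694 lower genes, and library totals alone 2828 and 4392. The replicate block, which treats same-numbered libraries as a set, gave 3645 higher and 3936 lower genes and ended no call among the named genes that were followed. With the covariate, EV lay below both groups for 26.9% of the higher and above both for 20.5% of the lower genes.

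Removing the GC trend, with or without the replicate block, turned the sign of NOTCH3 (−0.17), JAG2 (−0.040), HES6 (−0.085) and NRARP (−0.22). NOTCH4, which was never called, turned to 0.060 with the covariate, and ranged from −0.13 to 0.066 when 1 library was left out (0.0048 without NICD4 replicate 1 and 0.066 without NICD3 replicate 1). Among the named genes that were followed the covariate ended 21 calls. Library totals alone ended 5, those of HES1, NRARP, RBPJ, VCAN and SMAD4, the run without a filter on low counts ended 2 and the fit of the 6 libraries 1, HES1. NICD4 libraries are the shallower, which limits what can be said of genes under about 1 CPM.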

Other observations

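Genes with a pseudogene named after them were called lower more often than the rest. Of 1062 tested protein-coding genes with a pseudogene named after them in the table, 15.7% were higher and 40.7% lower in NICD4 cells in the first fit. Among the 11829 others these shares were 24.6% and 26.6%. With the GC slope as a covariate the shares were 2.45% and 10.8% for the genes with such a pseudogene, and 6.78% and 7.27% for the others. The match was by name and did not measure sequence identity, so TUBA1B and HSP90AB1 count among the others. GC content and level were not compared between these classes.

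Outside chromosome 21, several neighbouring sets of genes stood at the ends of the scan of 25-gene windows with the covariate. They are extremes picked from 2200 overlapping windows and were not tested as sets. Over all tested genes 5.97% were higher and 6.89% lower in that fit. A window on chromosome 10 from 35535953 to 49647403 (GRCh37) had a median of 0.35, with 5 genes higher and 0 lower. The lowest included chromosome 12 from 52626304 to 54071192, which holds the type II keratin genes, with a median of −0.32 and 11 of 25 genes lower. Another lay on chromosome 1 from 151955391 to 154167124, which holds the S100 genes, with a median of −0.31 and 11 of 25 genes lower. HES4 and ISG15, both higher in NICD4 cells in the first fit, are neighbours near the tip of chromosome 1, where the first window had a median of 0.26.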
